A study of Drosophila melanogaster with 16 samples.

Results

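The proteasome genes of the fly midgut were followed here, meaning those whose symbol stood alone on a probe set and began with Prosalpha, Prosbeta, Rpn or Rpt. This rule gave 40 of the 11982 genes with a single-symbol probe set. Of these, 26 were constitutive subunits and 14 were the paralogs whose symbol carries a T or an R after its number, referred to below as testis-type paralogs. The constitutive set held 6 alpha-ring genes (Prosalpha2 to Prosalpha7), 6 beta-ring genes (Prosbeta2 to Prosbeta7), 7 genes of the base (Rpn1, Rpn2, Rpn13 and Rpt2 to Rpt5) and 7 genes of the lid (Rpn3, Rpn5 to Rpn8, Rpn11 and Rpn12). RefSeq lists 48 genes with such symbols. Prosalpha1 and Prosalpha1R shared 1 probe set, and Prosbeta1, Rpn9, Rpn10, Rpt1, Rpt6 and Rpt6R had no probe set with a single symbol, so these 8 were not analysed here. Each of the 40 genes had exactly 1 probe set.

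The proteasome degrades proteins that carry ubiquitin chains. Its core particle is a stack of rings: outer alpha rings gate the entry, and inner beta rings hold the proteolytic sites, with caspase-like activity in beta1, trypsin-like activity in beta2 and chymotrypsin-like activity in beta5, as worked out in yeast and mammals. The regulatory particle caps the core. Its base holds the Rpt ATPases, which unfold substrates, together with large scaffold subunits and ubiquitin receptors, and its lid holds Rpn11, the enzyme that takes the ubiquitin chain off. The Drosophila genome holds additional copies of several subunits that are expressed in the testis during sperm formation.

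RNA of female midguts was hybridised to 16 Affymetrix Drosophila Genome 2.0 arrays, 4 for each of 4 genotypes. The groups were wild type, overexpression of a gain-of-function Raf (RafGOF), RafGOF with a dominant-negative Notch (RafGOFNotchDN) and RafGOF with the Notch intracellular domain (RafGOFNotchIC). Raf is the kinase between Ras and MAP kinase, and Notch steers the choice of fate among the daughters of intestinal stem cells. All transgenic groups thus share RafGOF, no Notch transgene was given without it, and the sources used here name neither the driver, nor the expressing cells, nor the age of the flies.

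All values are the authors' RMA signals on a log2 scale, on which a difference of 1 is a doubling, and a level cannot be set against that of another gene. A change was called at an adjusted p under 0.05 from limma over 18769 probe sets, two-sided. Whether arrays of one genotype came from separate animals or pools is not labelled, so a p-value speaks only of the spread from array to array. Array medians lay between 5.48 and 5.70. The targeted genes Raf and Notch had no single-symbol probe set and were not analysed here. Enterocyte markers, the check of the labelled tissue, were above the array median in every group for all 9 measured genes. The same held for all 8 measured Malpighian tubule markers and all 6 visceral muscle markers. The check therefore does not show that the samples were free of tubule. In a whole midgut, fewer cells of a type and less RNA per cell cannot be told apart.

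The first comparison asked how the midgut with active Raf differed from the wild-type midgut. Of the 26 constitutive subunits, 23 rose in RafGOF and none fell, against 14.9% of all genes that rose and 10.1% that fell. Among the 6870 genes with a mean of at least log2 6, which includes all 26, 23.8% rose. The median change over the 26 was 0.73, a 1.66-fold higher signal, and single genes ran from 0.41 to 0.94. The median over all genes was -0.00 and that over the brighter genes 0.12. In 23 of the 26 every RafGOF array lay above every wild-type array, which held for 15.6% of all genes. Each ring, the base and the lid held subunits that rose, and the estimated change was under a doubling for each subunit.

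**Figure D1:**
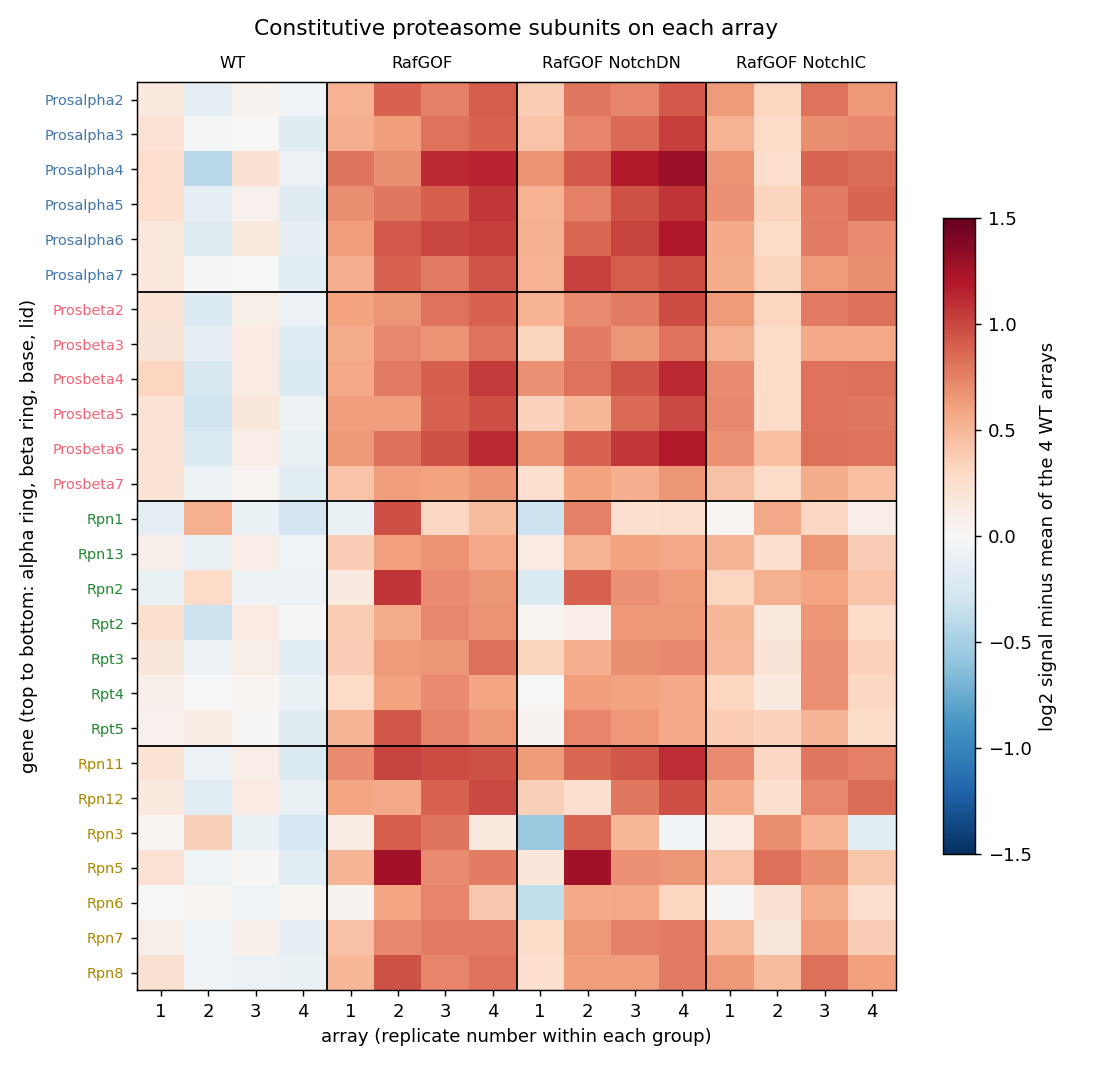
Deposited log2 signal of the 26 constitutive proteasome subunits (rows, ordered by ring, base and lid) on the 16 arrays (columns, by group and replicate number), as the difference from each gene's wild-type mean. RafGOF arrays had a median over the subunits of 0.52 to 0.82, RafGOFNotchDN arrays 0.34 to 0.80 and RafGOFNotchIC arrays 0.30 to 0.69, against -0.12 to 0.18 for the wild-type arrays.

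In the alpha ring all 6 genes rose, with a median change of 0.83 and a range of 0.72 to 0.94. Prosalpha4 changed most among the constitutive subunits. Its signal was 10.01, 9.33, 9.97 and 9.66 on the wild-type arrays and 10.54, 10.44, 10.86 and 10.88 on the RafGOF arrays. The groups did not overlap, and the difference was 0.94 ± 0.183 (SE; adjusted p = 0.00158), or 1.92-fold. Prosalpha6 read 10.86, 10.53, 10.85 and 10.59 in wild type and 11.34, 11.63, 11.71 and 11.74 in RafGOF, again without overlap, a difference of 0.90 ± 0.147 (SE; adjusted p = 0.0004). Prosalpha5 and Prosalpha7 rose by 0.86 and 0.79, and the smallest changes of the ring were 0.77 for Prosalpha2 and 0.72 for Prosalpha3.

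The beta ring also rose in all 6 measured genes, with a median of 0.76 and a range of 0.59 to 0.89. Prosbeta2, the trypsin-like subunit, read 11.05, 10.64, 10.93 and 10.75 in wild type, a mean of 10.84 ± 0.181 (SD, n = 4), and 11.45, 11.51, 11.66 and 11.73 in RafGOF, a mean of 11.59 ± 0.131 (SD, n = 4). No RafGOF array reached down to the wild-type range, and Prosbeta2 rose by 0.74 ± 0.130 (SE; adjusted p = 0.000669). Prosbeta5, the chymotrypsin-like subunit, read 11.14, 10.65, 11.11 and 10.87 in wild type and 11.57, 11.57, 11.83 and 11.91 in RafGOF. Its rise of 0.77 ± 0.163 (SE; adjusted p = 0.00282) was of similar size, with wild-type replicate 2 the lowest of the 8 arrays. Of the subunits without a catalytic site, Prosbeta6 rose by 0.89, Prosbeta4 by 0.83, Prosbeta3 by 0.69 and Prosbeta7 by 0.59.

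In the base 6 of 7 genes rose, with a median of 0.58 and a range of 0.41 to 0.71. Differences between the subcomplexes were not tested. Among the ATPases, Rpt5 rose by 0.71 ± 0.134 (SE; adjusted p = 0.00129), Rpt3 by 0.62, Rpt2 by 0.58 and Rpt4 by 0.55. Rpn13, a ubiquitin receptor, rose by 0.56. The 2 large scaffold subunits were the least even. Rpn2 passed with 0.64 ± 0.214 (SE; adjusted p = 0.0467) although its groups overlapped, and it was not called in either Notch group against wild type. Its call was lost with median centring, without the arrays numbered 2, without wild-type replicate 1, 3 or 4 and without RafGOF replicate 2, 3 or 4 (adjusted p between 0.0743 and 0.155). The call of Rpt2 was lost without the arrays numbered 2, without wild-type replicate 2 or 4 and without RafGOF replicate 3 or 4 (adjusted p between 0.0506 and 0.0781). Rpn1 read 9.23, 9.89, 9.26 and 9.07 in wild type and 9.27, 10.33, 9.67 and 9.84 in RafGOF. Its groups overlapped widely, with the array numbered 2 the highest of both, and its difference of 0.41 ± 0.243 (SE; adjusted p = 0.297) did not pass.

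In the lid 5 of 7 genes rose, with a median of 0.75 and a range of 0.44 to 0.91. Rpn11, the deubiquitinating enzyme, read 10.64, 10.34, 10.54 and 10.22 in wild type and 11.15, 11.44, 11.41 and 11.39 in RafGOF. The groups stood well apart, and Rpn11 rose by 0.91 ± 0.131 (SE; adjusted p = 0.000135), with the lowest adjusted p of the 40 genes in this comparison. Rpn8, which pairs with Rpn11, rose by 0.75, and the scaffold subunits Rpn5, Rpn12 and Rpn7 rose by 0.81, 0.76 and 0.68. Rpn3 read 9.45, 9.79, 9.31 and 9.16 in wild type and 9.54, 10.33, 10.23 and 9.57 in RafGOF, with overlap and a difference of 0.49 ± 0.284 (SE; adjusted p = 0.287). Rpn6 read 10.38, 10.42, 10.31 and 10.43 in wild type and 10.44, 10.97, 11.11 and 10.79 in RafGOF; the groups just missed each other, and the difference of 0.44 ± 0.190 (SE; adjusted p = 0.128) did not pass.

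Rpn1, Rpn3 and Rpn6 were the 3 subunits not called, and their call depended on whether arrays were paired by number. Arrays with the same number deviated together in this comparison (correlations of 0.127 to 0.594). With a block for the replicate number, the adjusted p was 0.0141 for Rpn1, 0.0265 for Rpn3 and 0.0211 for Rpn6, so that all 26 subunits passed, against 22.5% of all genes called higher in that fit.

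**Figure D2:**
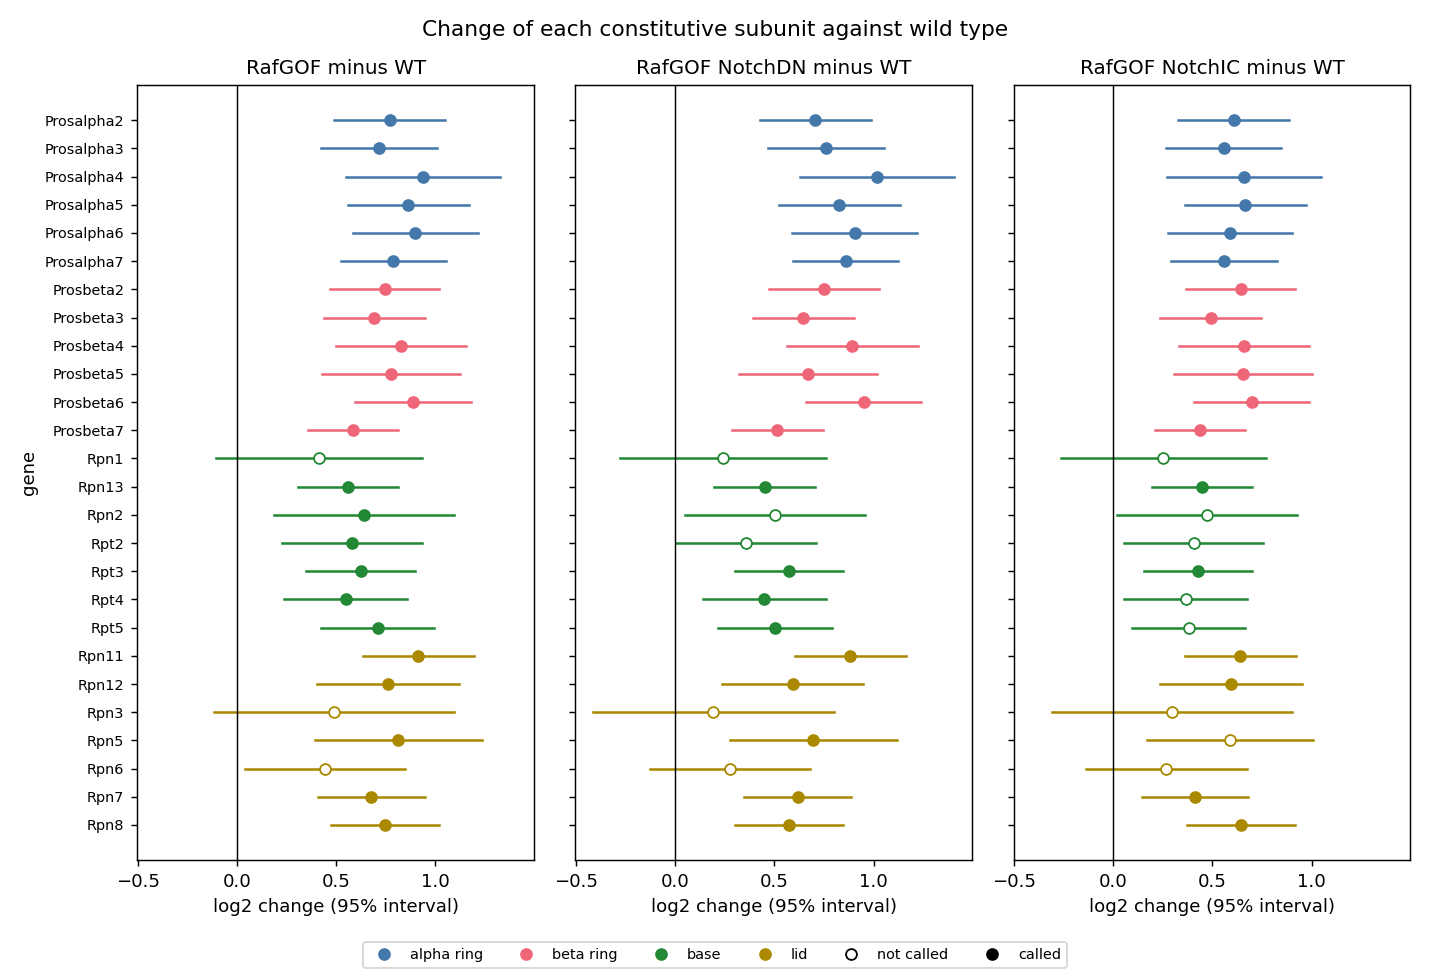
Change against wild type (log2) of each constitutive subunit in RafGOF, RafGOFNotchDN and RafGOFNotchIC, with 95% confidence intervals from limma and filled points for adjusted p under 0.05. All 26 subunits lay above 0 in the 3 comparisons, which share the same 4 wild-type arrays, and Rpn1, Rpn3 and Rpn6 were called in none of them.

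The arrays numbered 2 set some subunits apart from the others. On these arrays Rpn1 was higher than the mean of the other 3 arrays of its group by 0.64 on average over the 4 groups, Rpn3 by 0.62 and Rpn2 by 0.39, and each of these was higher in all 4 groups. Rpn5 was higher by 0.39 on average, in 3 of the 4 groups. In the opposite direction Prosalpha4 differed by -0.38, Rpn12 by -0.35, Prosbeta5 by -0.33 and Rpt2 by -0.28, and each was lower in all 4 groups. Prosalpha3, Prosalpha5, Prosbeta2, Prosbeta4 and Prosbeta6 were also lower in all 4 groups, by smaller amounts. How often genes outside the family kept their sign over the 4 groups was not counted. Subunits of one particle therefore went in opposite directions on the same arrays, and the base and lid contributed to both sides. Leaving out the arrays numbered 2 left 20 of the 26 subunits higher in RafGOF than in wild type, with a median change of 0.67.

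**Figure D3:**
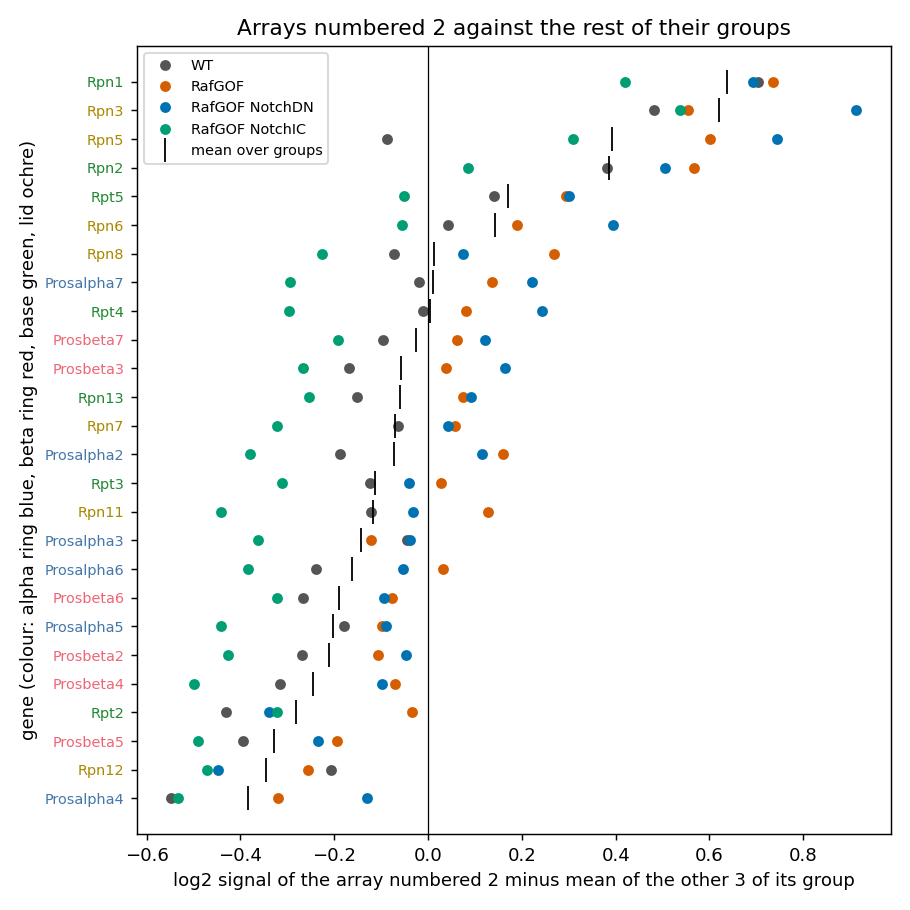
Difference between the array numbered 2 and the mean of the other 3 arrays of its group (log2) for each constitutive subunit, with 1 point per group and a tick at the mean over groups. Rpn1, Rpn2 and Rpn3 were higher on that array in all 4 groups. Lower in all 4 were Prosalpha3, Prosalpha4, Prosalpha5, Prosbeta2, Prosbeta4, Prosbeta5, Prosbeta6, Rpt2 and Rpn12.

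With either Notch transgene added to RafGOF, most constitutive subunits were still higher than in wild type. In RafGOFNotchDN 21 of 26 rose over wild type and none fell, against 14.6% and 12.1% of all genes, with a median change of 0.63 and a range of 0.19 to 1.02. In 18 of the 26 all arrays of the groups were separate, which held upward for 14.2% of all genes. All alpha-ring and beta-ring genes rose, with medians of 0.84 and 0.71, as did 4 of 7 in the base (median 0.45) and 5 of 7 in the lid (median 0.59). Rpn1, Rpn2, Rpn3, Rpn6 and Rpt2 did not pass. Of these, Rpn2 (adjusted p = 0.125) passed with the replicate block (adjusted p = 0.0108), a fit that called 20.5% of all genes higher. Among the called genes, Rpt4 lost its call without any 1 of the wild-type arrays or of RafGOFNotchDN replicates 2 to 4, Rpn12 without wild-type replicate 2 or 4 or RafGOFNotchDN replicate 3 or 4, and Rpn5 without wild-type replicate 4 or RafGOFNotchDN replicate 2. All 26 changes were above 0, except that the lowest was -0.03 without RafGOFNotchDN replicate 2.

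Prosalpha4 again led, with 10.41, 10.66, 10.93 and 11.04 on the RafGOFNotchDN arrays and a difference from wild type of 1.02 ± 0.183 (SE; adjusted p = 0.000662). Prosbeta6 read 10.59, 10.18, 10.49 and 10.27 in wild type and 11.05, 11.26, 11.44 and 11.57 in RafGOFNotchDN. It rose by 0.95 ± 0.137 (SE; adjusted p = 9.52e-05), the lowest adjusted p of the 40 genes in this comparison. Prosalpha6 read 11.24, 11.57, 11.72 and 11.91 and rose by 0.90 ± 0.147 (SE; adjusted p = 0.00029). The array numbered 1 was the lowest of the RafGOFNotchDN arrays for each of these genes. The catalytic subunits read 11.36, 11.56, 11.62 and 11.82 for Prosbeta2, which rose by 0.75 ± 0.130 (SE; adjusted p = 0.000484), and 11.29, 11.44, 11.79 and 11.94 for Prosbeta5, which rose by 0.67 ± 0.163 (SE; adjusted p = 0.00679). For both, the arrays of the 2 groups were separate.

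In RafGOFNotchIC 18 of 26 rose over wild type and none fell, against 9.98% and 6.77% of all genes, with a median change of 0.56 and a range of 0.25 to 0.70. All arrays were separate in 20 of the 26, which held upward for 12.2% of all genes. All 6 alpha-ring genes (median 0.60) and all 6 beta-ring genes (median 0.65) rose, as did 2 of 7 in the base (median 0.40) and 4 of 7 in the lid (median 0.59). With a block for the replicate number 23 of the 26 passed, all but Rpn1, Rpn3 and Rpn6, against 17.6% of all genes called higher. Same-numbered arrays did not all deviate together in this comparison (lowest correlation 0.0489). The count of 18 without a block rested on single arrays of both groups. It was 9 without RafGOFNotchIC replicate 3 and 14 without RafGOFNotchIC replicate 4. It was 13 without RafGOFNotchIC replicate 1 and without wild-type replicate 2 or 4.

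Prosbeta6, with 11.07, 10.84, 11.21 and 11.20 on the RafGOFNotchIC arrays, rose by 0.70 ± 0.137 (SE; adjusted p = 0.00327). Prosalpha5 read 10.49, 10.10, 10.30 and 10.05 in wild type and 10.92, 10.57, 11.01 and 11.11 in RafGOFNotchIC, and rose by 0.67 ± 0.143 (SE; adjusted p = 0.00619). Both sets of arrays were separate from wild type, with replicate 2 the lowest of RafGOFNotchIC. Prosalpha4 read 10.41, 10.00, 10.61 and 10.58; replicate 2 lay just below the highest wild-type array, and the difference was 0.66 ± 0.183 (SE; adjusted p = 0.0257). The call of Prosalpha4 was lost without wild-type replicate 2 or 4 or without RafGOFNotchIC replicate 1, 3 or 4, with adjusted p between 0.0584 and 0.091. Prosbeta2 read 11.48, 11.16, 11.62 and 11.67 and rose by 0.64 ± 0.130 (SE; adjusted p = 0.00405), and Prosbeta5 read 11.67, 11.23, 11.76 and 11.74 and rose by 0.66 ± 0.163 (SE; adjusted p = 0.0143). Prosbeta5 lost its call without RafGOFNotchIC replicate 3 (adjusted p = 0.0539). The same 18 subunits were called in all 3 comparisons with wild type, namely all 12 core genes, Rpn13 and Rpt3 of the base, and Rpn7, Rpn8, Rpn11 and Rpn12 of the lid. These comparisons share the wild-type arrays. In RafGOFNotchIC against wild type Rpn7 lost its call in 10 of 16 alternatives, Rpt3 in 9, Rpn12 in 5 and Rpn13 in 4. Rpn8 and Rpn11 kept theirs in all 16.

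The next comparisons asked whether blocking or activating Notch altered the level reached under RafGOF. Between RafGOFNotchDN and RafGOF, limma called none of the 26 constitutive subunits, and 0 had an unadjusted p under 0.05; 0.818% of all genes rose and 0.551% fell. The median difference was -0.07 and the range -0.30 to 0.08. The sign of this median rested on 1 array: it was 0.05 without RafGOFNotchDN replicate 1. It was -0.12 without RafGOFNotchDN replicate 4, -0.14 without RafGOF replicate 1, -0.04 without RafGOF replicate 2, -0.03 without RafGOF replicate 4 and -0.01 with a further quantile normalisation. Rpn3, with 8.87, 10.30, 9.92 and 9.38 against 9.54, 10.33, 10.23 and 9.57, differed by -0.30 (95% interval -0.90 to 0.31; adjusted p = 0.943). Rpt2, with 9.73, 9.80, 10.35 and 10.35 against 10.08, 10.25, 10.42 and 10.37, differed by -0.22 (adjusted p = 0.888). Rpt5, with 10.25, 10.92, 10.84 and 10.76 against 10.70, 11.12, 10.94 and 10.84, differed by -0.21 (adjusted p = 0.832). In these 3 genes the groups overlapped, and RafGOFNotchDN replicate 1 was the lowest of the 8 arrays. Over the 26 subunits the 95% intervals reached from -0.90 to 0.47, so that differences of this size could not be told from none. For the catalytic subunits the intervals were narrower, -0.27 to 0.28 for Prosbeta2 and -0.45 to 0.24 for Prosbeta5.

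Between RafGOFNotchIC and RafGOF all 26 differences were negative, with a median of -0.18 and a range of -0.33 to -0.10, and limma called none; 1 had an unadjusted p under 0.05. Single subunits were above 0 without RafGOF replicate 2 (1 subunit, highest 0.02), without RafGOFNotchIC replicate 2 (2 subunits) and without the arrays numbered 2 (1 subunit, highest 0.02), and the median was -0.11 in both of the latter. Among all genes 1.4% rose and 1.61% fell. Rpt5, which read 10.58, 10.53, 10.71 and 10.47 in RafGOFNotchIC, differed by -0.33 (95% interval -0.61 to -0.04; adjusted p = 0.315). Prosalpha6 read 11.27, 11.01, 11.48 and 11.42 and differed by -0.31 (adjusted p = 0.437). Prosalpha4 differed by -0.28 (adjusted p = 0.68). The arrays of the groups overlapped for all 26. The median was -0.21 in the alpha ring, -0.16 in the beta ring, -0.18 in the base and -0.19 in the lid. The 26 subunits share their arrays, and their common sign is not 26 separate observations.

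Set directly against each other, RafGOFNotchDN was above RafGOFNotchIC in 21 of the 26 subunits, with a median of 0.11 and a range of -0.10 to 0.36. Without RafGOFNotchDN replicate 1 all 26 were above 0, with a median of 0.25, and without the arrays numbered 2 only 14 were, with a median of 0.01. The median was also 0.06 without RafGOFNotchDN replicate 4, 0.06 without RafGOFNotchIC replicate 2, 0.17 without RafGOFNotchIC replicate 3, 0.06 with median centring and 0.22 with a further quantile normalisation. None was called by limma and 2 had an unadjusted p under 0.05, against 6.09% of all genes called higher and 5.47% lower. None was called with the replicate block either, against 10.6% higher and 13.8% lower. The alpha ring had a median of 0.25, the beta ring 0.13, the base 0.03 and the lid 0.01. Prosalpha4 differed by 0.36 (adjusted p = 0.301) and Prosalpha6 by 0.32 (adjusted p = 0.248). Prosalpha7, with 10.78, 11.28, 11.16 and 11.24 against 10.82, 10.59, 10.89 and 10.95, differed by 0.30 (adjusted p = 0.181). The arrays overlapped for Prosalpha7, whose lowest RafGOFNotchDN array was replicate 1. Without that array Prosalpha7 passed (0.41, adjusted p = 0.0372), as it did when the values were quantile-normalised once more (0.39, adjusted p = 0.0311).

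**Figure D4:**
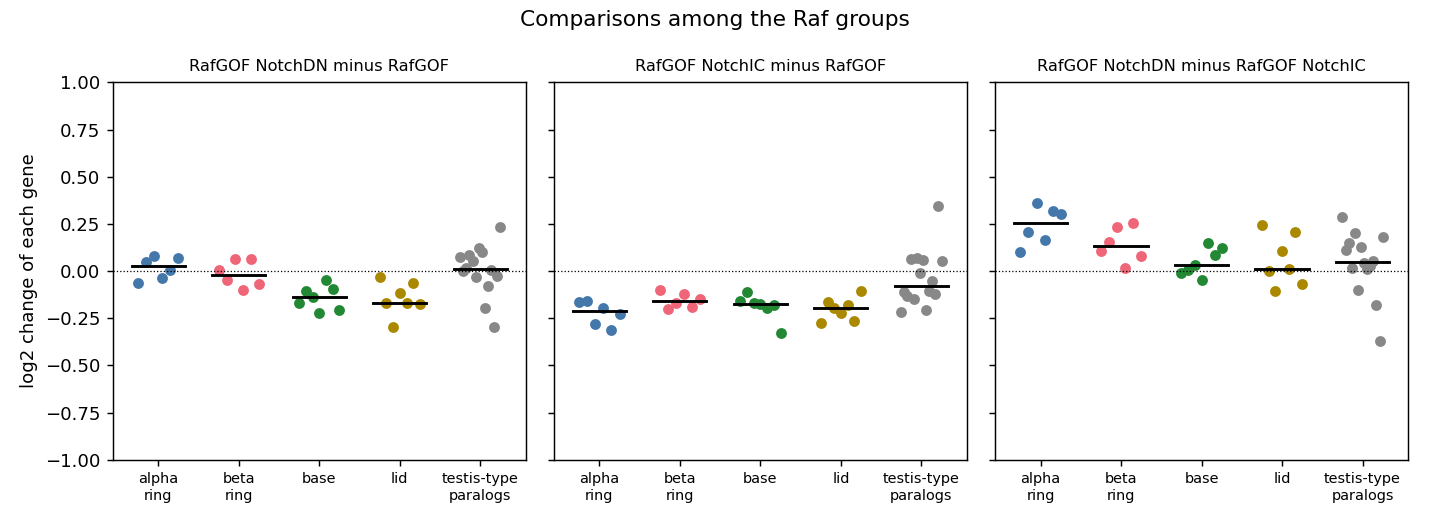
Differences between the RafGOF groups (log2, 1 point per gene) by subcomplex and for the testis-type paralogs, with a bar at the median of each set. No gene was called in these comparisons, and the RafGOFNotchIC minus RafGOF differences of the constitutive subunits all lay below 0, between -0.33 and -0.10.

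The 14 testis-type paralogs had dim signals. On all 16 arrays 12 of them lay below the array median, Prosbeta2R1 lay below it on 3 arrays and Rpn13R on 13, and none had a mean of at least log2 6. At such signals a change in transcript may not show. Of 18 measured testis markers 16 were below the array median in every group, and their mean level on single arrays was 4.39 to 4.49 in wild type and 4.30 to 4.47 in RafGOF. Between RafGOF and wild type limma called none of the 14, 1 had an unadjusted p under 0.05, and the median was -0.09 with a range of -0.44 to 0.15.

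Rpn13R, the paralog of the ubiquitin receptor Rpn13, varied most. It read 5.48, 6.60, 5.96 and 5.46 in wild type, 5.58, 5.52, 5.39 and 5.25 in RafGOF, 5.22, 5.34, 4.97 and 5.01 in RafGOFNotchDN and 5.38, 5.54, 5.03 and 5.31 in RafGOFNotchIC. Wild-type replicate 2 was above the other 15 arrays, and only the RafGOFNotchDN arrays were all below the wild-type arrays. The difference from wild type was -0.44 ± 0.203 (SE; adjusted p = 0.16) in RafGOF, which did not pass, and -0.74 ± 0.203 (SE; adjusted p = 0.0149) in RafGOFNotchDN, where Rpn13R fell, against 12.1% of all genes. This call was lost in a fit of the 8 arrays of the comparison alone (adjusted p = 0.0579). Without wild-type replicate 2 the difference from wild type of Rpn13R was -0.20 in RafGOF, -0.50 in RafGOFNotchDN and -0.32 in RafGOFNotchIC. In RafGOFNotchIC the difference was -0.56 ± 0.203 (SE; adjusted p = 0.0871), and it passed without wild-type replicate 1 (-0.69, adjusted p = 0.046) or replicate 4 (-0.70, adjusted p = 0.0459).

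Rpt3R, the paralog of the ATPase Rpt3, read 4.23, 4.31, 4.29 and 4.06 in wild type, 4.48, 4.35, 4.32 and 4.33 in RafGOF, 4.31, 4.33, 4.52 and 4.21 in RafGOFNotchDN and 4.88, 4.98, 4.42 and 4.58 in RafGOFNotchIC. The RafGOFNotchIC arrays were all above wild type, and replicates 1 and 2 of that group were the highest of all 16 arrays. Rpt3R rose by 0.49 ± 0.116 (SE; adjusted p = 0.0105) over wild type in RafGOFNotchIC. Against RafGOF the difference was 0.34 ± 0.116 (SE; adjusted p = 0.18), which did not pass. Between RafGOFNotchDN and RafGOFNotchIC it was -0.37 ± 0.116 (SE; adjusted p = 0.0618), and it passed with the replicate block (adjusted p = 0.0251). It also passed with median centring (adjusted p = 0.0316), with a further quantile normalisation (adjusted p = 0.026) and without RafGOFNotchIC replicate 3 (adjusted p = 0.0191). In RafGOF the difference from wild type was 0.15 ± 0.116 (SE; adjusted p = 0.46), although all 4 arrays lay above the wild-type arrays.

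The remaining paralogs with the largest differences in a comparison were all below the threshold without a block. Prosalpha3T read 4.61, 4.34, 4.32 and 4.28 in RafGOFNotchDN and 4.27, 3.92, 4.04 and 4.17 in RafGOFNotchIC, without overlap. Its difference of 0.29 ± 0.116 (SE; adjusted p = 0.163) passed with the replicate block (adjusted p = 0.0186), and Prosalpha3T differed by -0.22 between RafGOFNotchIC and RafGOF (adjusted p = 0.538). Prosalpha4T1 read 4.54, 4.55, 4.35 and 4.18 in wild type, 4.54, 4.22, 4.16 and 4.08 in RafGOF and 4.40, 4.10, 4.37 and 4.13 in RafGOFNotchDN, with overlap and differences from wild type of -0.16 and -0.16. Prosbeta2R1, the paralog with signals nearest the array median, read 5.96, 5.86, 5.64 and 5.87 in wild type, 6.10, 5.64, 5.74 and 5.54 in RafGOFNotchDN and 5.72, 5.38, 5.41 and 5.72 in RafGOFNotchIC. Its differences were -0.28 from wild type in RafGOFNotchIC (adjusted p = 0.171) and 0.20 between the Notch groups (adjusted p = 0.425), and the arrays overlapped in both. Rpt4R read 5.10, 4.68, 5.15 and 5.35 in RafGOF and 5.33, 5.29, 5.48 and 5.11 in RafGOFNotchDN, a difference of 0.23 (adjusted p = 0.668).

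Prosbeta5R1 read 4.17, 3.86, 4.07 and 4.02 in RafGOF, 3.88, 3.71, 3.91 and 3.84 in RafGOFNotchDN and 3.73, 3.89, 3.85 and 3.82 in RafGOFNotchIC. Its differences from RafGOF were -0.19 and -0.21, neither of which passed, and the arrays overlapped. Prosbeta5R2 read 4.44, 4.73, 5.06 and 4.46 in wild type and 4.60, 4.50, 4.65 and 4.26 in RafGOFNotchDN, a difference of -0.17 with overlap (adjusted p = 0.551). The names of 5 probe sets, those of Prosbeta5, Prosbeta7, Rpn13, Rpn6 and Rpn12R, end in s, which marks probes shared by several transcripts, so their signals may include near copies.

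**Figure D5:**
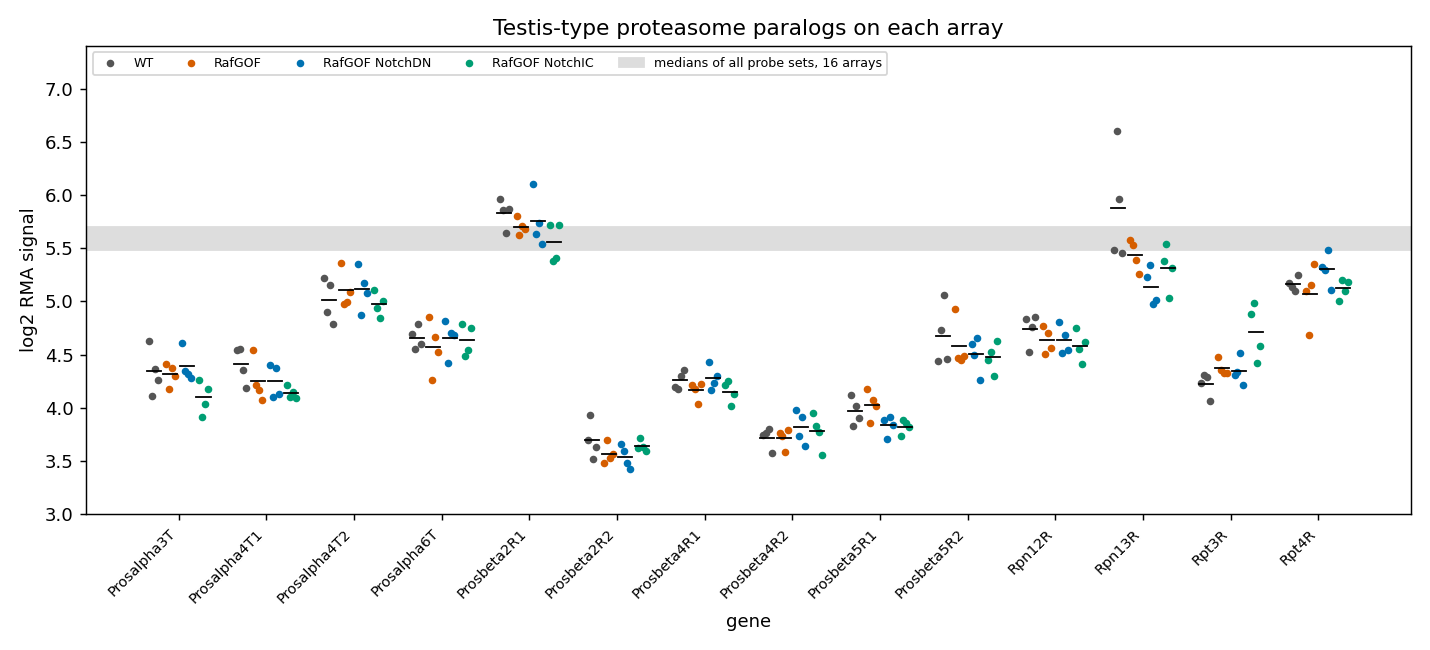
Deposited log2 signal of the testis-type paralogs on the 16 arrays, 1 point per array, with a bar at each group mean and a grey band for the range of the array medians. Rpn13R was lower in RafGOFNotchDN (4.97 to 5.34) than in wild type (5.46 to 6.60), and Rpt3R was higher in RafGOFNotchIC (4.42 to 4.98) than in wild type (4.06 to 4.31).

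Other genes of the pathway were read from lists of known partners, beside the 14.9% of all genes, or 23.8% of the brighter genes, that rose in RafGOF over wild type and the 10.1% of all genes that fell. Of 10 measured activators, assembly factors and deubiquitinases, 7 rose in RafGOF over wild type and none fell, with a median of 0.57. Pomp, the chaperone of core assembly, rose by 1.04 (adjusted p = 0.00112), REG, an activator that caps the core without ATP, by 1.03 (adjusted p = 3.91e-05), Sem1, a small subunit of the lid, by 0.94, and Uch-L5, a deubiquitinase bound to the particle, by 0.68. In RafGOFNotchDN and in RafGOFNotchIC, 4 of the 10 rose over wild type, in both cases REG, Pomp, Sem1 and Uch-L5. Of all genes 14.6% and 9.98% rose in these 2 comparisons. In RafGOFNotchIC Uch-L5 (adjusted p = 0.0499) lost its call in 11 of 16 alternatives, Pomp in 9 and REG in 4. REG differed between the Notch groups: it fell by 0.55 from RafGOF to RafGOFNotchIC (adjusted p = 0.0336) and was 0.87 higher in RafGOFNotchDN than in RafGOFNotchIC (adjusted p = 0.000392). Pomp was 0.67 higher in RafGOFNotchDN than in RafGOFNotchIC (adjusted p = 0.0424). The fall of REG in RafGOFNotchIC passed in 6 of 16 alternatives and the difference of Pomp between the Notch groups in 7 of 16.

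Of the 10 measured genes of the cnc and stress-regulator list, none rose and 1 fell in RafGOF, with a median of -0.10. The gene that fell was Keap1, which holds the transcription factor cnc in check, by 0.47 (adjusted p = 0.0275). This call was lost without wild-type replicate 2 or 3 or RafGOF replicate 1, 3 or 4, among others (adjusted p between 0.0551 and 0.0768). At 1 of 10 the list was at the share of all genes that fell. With the replicate block Keap1 still passed and crc, a transcription factor of the stress response, rose by 0.58 (adjusted p = 0.00176). The transcript of cnc itself, the fly counterpart of the factor that raises proteasome genes in mammals when proteasome activity drops, differed by -0.11 (adjusted p = 0.674) and that of its partner maf-S by 0.09 (adjusted p = 0.461), both named after their values were seen. Of 9 ubiquitin activation and shuttling genes 2 rose, namely Ubi-p5E, a polyubiquitin gene, by 0.75, and Uba2, a subunit of the enzyme that activates SUMO rather than ubiquitin, by 1.15. This count was near the shares of all genes and of the brighter genes, and with the replicate block it was 4, beside 22.5% of all genes. Of 8 genes of the p97 unfoldase and its cofactors 4 rose and none fell, led by p47 (0.56) and Ufd1 (0.55). In RafGOFNotchDN against wild type Keap1 (-0.52), Hrd3 (-0.49) and sip3 (-0.71) of the stress-regulator list were called lower, beside 12.1% of all genes. The call of Keap1 there was lost in 2 of 16 alternatives. Between RafGOFNotchDN and RafGOFNotchIC sip3 differed by -0.64 (adjusted p = 0.0389), where 5.47% of all genes were called lower.

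Genes of related complexes were read in RafGOF against wild type, where 14.9% of all genes and 23.8% of the brighter genes rose. Of all genes 10.1% fell. Of 9 COP9 signalosome genes, whose complex resembles the lid, 5 rose in RafGOF and none fell, led by CSN5 (0.66), the counterpart of Rpn11. Of 12 chaperonin and heat-shock protein genes 7 rose and none fell, with a median of 0.70. In RafGOFNotchIC against wild type none of these 12 rose and 1 fell, beside 9.98% and 6.77% of all genes. The gene that fell was the endoplasmic reticulum chaperone Gp93, by 0.68 (adjusted p = 0.00961). Gp93 was also lower in RafGOFNotchDN than in RafGOF, by 0.73 (adjusted p = 0.0349), where 0.551% of all genes fell. In RafGOFNotchIC against wild type the median over the list was 0.18, where 18 of the 26 proteasome subunits rose. With the replicate block CCT1 (0.47), CCT6 (0.49) and Hsp60A (0.49) passed as higher, and Gp93 and Hsc70-3 (-0.49) as lower. That fit called 17.6% of all genes higher and 11.7% lower. Same-numbered arrays did not all deviate together in that comparison. Between RafGOFNotchIC and RafGOF all 12 differences were negative with a median of -0.47. There limma called none, beside 1.61% of all genes that fell, while 5 had an unadjusted p under 0.05. With the replicate block 6 were called lower, beside 4.55% of all genes. Of 12 anaphase-promoting complex genes 4 rose and none fell, led by fzy (1.45) and fzr (1.09), which bring substrates to the complex. The value of fzy comes from the brightest of its probe sets, and with the mean of its probe sets its difference was 0.36. With the replicate block 7 of the 12 rose and 1 fell, beside 22.5% and 15% of all genes. Of 16 autophagy genes 1 rose, Atg12 (1.20), and 1 fell, Atg13 (-0.63), below the shares of all genes in both directions. With the replicate block 6 rose and 1 fell, beside 22.5% of all genes called higher.

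Marker genes of cell types also differed between the groups, in both directions. The counts below are for RafGOF against wild type, where 14.9% of all genes rose and 10.1% fell. Of 8 stem cell and enteroblast markers 5 rose and 1 fell in RafGOF, and their mean level on single arrays was 6.45 to 6.63 in wild type, 7.12 to 7.61 in RafGOF, 7.49 to 8.24 in RafGOFNotchDN and 6.72 to 6.92 in RafGOFNotchIC. Visceral muscle markers fell in 5 of 6, with a mean level of 9.89 to 10.40 in wild type and 9.22 to 9.75 in RafGOF. Malpighian tubule markers fell in 6 of 8, with 9.07 to 10.04 in wild type and 8.30 to 8.76 in RafGOF. Enteroendocrine markers fell in 3 of 8, with 7.76 to 8.13 in wild type and 7.08 to 7.71 in RafGOF, while of 9 enterocyte markers 1 rose and 2 fell, with a mean level of 13.23 to 13.47 against 13.09 to 13.39. The part of these shifts in the change of the proteasome subunits was not tested.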

How the data were processed

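RNA of 16 female midgut samples, extracted with a phenol reagent and biotin-labelled, was measured on Affymetrix Drosophila Genome 2.0 arrays, 4 per genotype. The deposited log2 values are RMA signals (a background-corrected, quantile-normalised probe summary), per the submitters' processing notes; no source used here names the software or its version. RMA compresses small differences near its floor, and an even shift of all genes between groups would be removed by it. Arrays carry no read depth, and their number limits the precision.

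Of 18952 probe sets, 183 controls were set aside and 18769 entered a limma fit (limma 3.58.1, R 4.3.3) of all 16 arrays with a mean for every genotype. Variances were moderated by eBayes, and p-values were adjusted per comparison by Benjamini-Hochberg. Every SE rests on the spread over all 16 arrays. Tables were handled in Python 3.11.15 with pandas 2.3.3. Genes were named through the platform's annotation table, which gave 13647 probe sets with 1 symbol, 402 with several and 4720 without one, and 11982 genes after keeping the brightest probe set of each. Subunits were assigned to ring, base, lid or paralog by symbol alone.

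All pairs of genotypes were compared; these comparisons share groups, so their values are not independent. Any proteasome gene may be named. Values by array are given for the catalytic subunits and the 3 constitutive subunits and 3 paralogs with the largest change in each comparison. From the other lists, with 160 of 199 entries measured, up to 4 genes called without a block are named in each comparison given. Most of these lists are given for RafGOF against wild type only, and genes called in their other comparisons are not all named. The ovary list was read as well: of 17 measured genes 1 rose in RafGOF over wild type, piwi (1.50), beside 14.9% of all genes. Against wild type piwi was also called higher in RafGOFNotchDN (1.92), beside 14.6% of all genes, but not in RafGOFNotchIC (0.21). Members, lists and tests were chosen with earlier results of these data known, and the cell-type markers are commonly used ones. No sequences were used here.

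Same-numbered arrays deviated together from their group means, with every correlation over 0.1, in all comparisons but RafGOFNotchIC minus wild type (lowest 0.0489); this pairing comes from the data, since no label explains the numbers. Alternatives were the replicate block, a fit of the 8 arrays compared, a filter at a mean of log2 6, median centring, quantile normalisation once more, moderation with trend and robust options, averaging of probe sets, and leaving out each array in turn or the arrays numbered 2. The fit was also run on simulated data with independent arrays and added changes of at least a doubling in either direction. That run does not bear on smaller changes or on arrays that deviate together.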

Additional observations from a re-analysis of the deposited data

Results flagged for a closer look

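In 6 of 160 sets of 4 arrays, 1 array lay far from the other 3, beyond the critical value of Dixon's gap test; chance gives about 1 in 20 such sets. For Prosbeta3 the RafGOFNotchIC replicate 2 was low at 11.42, with the others at 11.66 to 11.71. Rpt4 was low at 9.97 in RafGOFNotchDN replicate 1, with the others at 10.54 to 10.60. Rpn7 was low at 10.42 in RafGOF replicate 1, with the others at 10.70 to 10.75. In wild type, Rpn2 was high at 9.96 in replicate 2 (others 9.56 to 9.60) and Rpn8 was high at 9.74 in replicate 1 (others 9.41 to 9.45). The paralog Prosbeta5R2 was high at 4.93 in RafGOF replicate 1, with the others at 4.45 to 4.48.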

How the results depend on the processing

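Over the 40 genes and 6 comparisons no called change turned its sign under any alternative run, whereas 188 of 2734 values of changes that were not called did, each without being called. The number of constitutive subunits called higher than wild type ran over the single arrays left out from 21 to 24 for RafGOF, from 18 to 23 for RafGOFNotchDN and from 9 to 18 for RafGOFNotchIC, the last count being 9 without RafGOFNotchIC replicate 3. Between RafGOFNotchDN and RafGOFNotchIC it ran from 0 to 1, and quantile normalisation once more also gave 1 (Prosalpha7); the cause was not tested. With the replicate block the counts were 26, 22 and 23, and 0 in the comparisons among the RafGOF groups. In RafGOFNotchIC against wild type, where same-numbered arrays did not all deviate together (correlations of 0.0489 to 0.574), the block added 5 constitutive subunits. There it also called Prosalpha3T (adjusted p = 0.0366), Prosalpha4T1 (0.041) and Rpn13R (0.0212) lower. Beyond these and the calls given beside the results, the block changed no call of these genes. Without the arrays numbered 2 the counts were 20, 19 and 16. Of the values of called changes, 54 of 512 lost their call with 1 array left out and 16 of 510 under the other alternatives; of those not called, 7 of 1408 and 23 of 1326 gained one. Dim signals limit what can be said of the paralogs.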
